A study of Mus musculus with 4 samples.

Results

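The genes described here are the expressed members of the mouse Zfp series, genes whose symbol is Zfp followed by a number and nothing else. The RNA came from a mouse mammary carcinoma line, 4T07, and the genes kept were those with a mean of at least 1.5 RPKM over the 4 libraries. RPKM is a gene's number of reads scaled by its length in kilobases and by the library's read total. Of 337 genes with such a symbol among the 24421 in the table, 224 met the rule and 113 did not, 25 of which were at 0 in all 4 libraries. A further 28 genes carry a letter after the number and were not taken. The genes were thus chosen by their level averaged over both groups, and the levels below describe them and support nothing. At the edge of the rule stood Zfp329, Zfp605 and Zfp398, each at 1.51 RPKM, with Zfp934 at 1.48, Zfp438 at 1.44 and Zfp560 at 1.40 RPKM just outside it. In 9 of the 224 the mean of one group alone lay under 1.5 RPKM, 5 of them in the Six2 libraries and 4 in the CTL libraries.

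Most Zfp genes encode C2H2 zinc finger proteins, in which each finger is a small fold of a pair of cysteines and a pair of histidines around a zinc ion, and a row of fingers reads a stretch of DNA. Many of them also carry a KRAB box, a domain that binds the corepressor Trim28, which brings the histone methyltransferase Setdb1 and deposits H3K9 trimethylation on the bound DNA. KRAB zinc finger genes lie in clusters that expanded by duplication, and many bind retrotransposons or imprinted loci. The name Zfp gathers several kinds of protein, and some members bind RNA or act as ubiquitin or SUMO ligases. A SCAN domain, found in a few of them, pairs such proteins with one another.

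Six2 is a homeobox transcription factor, and 2 libraries labelled as overexpressing it were set against 2 libraries labelled CTL. All were polyadenylated RNA of 4T07 cells of strain Balb/cfC3H, taken 48 hours after plating. The expression construct, and whether each line was 1 clone, were not stated in the labels. Six2 itself had 0.0285 and 0 RPKM in the Six2 libraries and 0 and 0 RPKM in the CTL libraries, so the values do not show the labelled overexpression, and "Six2 libraries" below means the libraries so labelled. Read totals recovered from the RPKM steps were 49910629 and 81524250 in Six2 replicates 1 and 2, and 43110985 and 41881864 in CTL replicates 1 and 2. Nothing in the labels says that the replicates came from separate cultures, so p-values measure only the spread between these libraries. Krt8, a simple-epithelial keratin, had 972 and 607 RPKM in the Six2 libraries and 1059 and 742 RPKM in the CTL libraries, but Epcam was at or below 0.214 RPKM in the Six2 libraries and at or below 0.720 RPKM in the CTL libraries. Cdh1, the E-cadherin gene, had 0.186 and 0.103 RPKM in the Six2 libraries against 14.6 and 8.40 RPKM in the CTL libraries. Krt18 had 691 and 389 RPKM in the Six2 libraries and 800 and 474 RPKM in the CTL libraries, which overlap. Vim, the vimentin gene, also overlapped, with 1427 and 1524 RPKM in the Six2 libraries and 1300 and 1553 RPKM in the CTL libraries. The summed level of 6 leukocyte markers, with Adgre1 at 0 in all 4 libraries, was 5.34 to 9.76 RPKM in the Six2 libraries and 8.01 to 13.5 RPKM in the CTL libraries, most of it Cd68. The sum of 5 endothelial markers, with Kdr at 0, was 0.0295 to 0.0479 RPKM in the Six2 libraries and 0.0814 to 0.157 RPKM in the CTL libraries. That of 6 fibroblast markers, with Lum at 0, was 5.18 to 7.44 RPKM in the Six2 libraries and 5.28 to 9.92 RPKM in the CTL libraries, most of it Pdgfra. The part of these markers in the results was not tested.

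The 224 genes were expressed at low to moderate levels that differed little between the groups. Their median level per library was 5.02 and 5.06 RPKM in the Six2 libraries and 5.31 and 5.32 RPKM in the CTL libraries. Their summed level was 1828 and 1791 RPKM in the Six2 libraries, against 1807 and 1773 RPKM in the CTL libraries, ranges that overlap. Single genes averaged between 1.51 and 60.9 RPKM with a median of 5.17 RPKM, and 105 lay under 5 RPKM, 56 at 10 RPKM or more and 15 at 20 RPKM or more. The thinnest value among them rested on 72 reads, and the median over genes of the lowest read count was 674 reads. In these bulk libraries, fewer cells expressing a gene and less RNA per cell cannot be told apart.

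The gene of highest level was Zfp207, which encodes a microtubule-binding protein of the kinetochore, with 57.5 and 68.4 RPKM in the Six2 libraries and 55.2 and 62.3 RPKM in the CTL libraries. Zfp106, an RNA-binding protein needed by motor neurons and muscle in the mouse, had 43.0 and 42.9 RPKM in the Six2 libraries and 42.9 and 44.9 RPKM in the CTL libraries. Zfp146, a protein made almost entirely of fingers, had 39.1 and 47.1 RPKM in the Six2 libraries and 35.2 and 44.2 RPKM in the CTL libraries. In all of these genes the groups overlapped. The same held for Zfp740, Zfp64, Zfp706 and Zfp362, whose log2 differences lay between -0.15 and 0.10. Zfp362 had one of the larger replicate differences, with 37.1 and 24.0 RPKM in the Six2 libraries and 34.9 and 22.3 RPKM in the CTL libraries. Replicate 2 was the lower in both groups. Its log2 difference of replicate 2 minus replicate 1 was -0.615 over both groups, while the median size over the 224 genes was 0.129. Of the 8 genes of highest level only Zfp637, described below, had its libraries apart by group. The libraries were apart in 43.3% of the Zfp genes and in 47.4% of all genes tested.

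No Zfp gene passed the test at an adjusted p of 0.05, and their differences spread over a narrower range than those of all genes tested, which is a description with no test. The test was limma on log2(RPKM + 1) over the 10654 genes that reached 1 RPKM in 2 or more libraries, two-sided with Benjamini-Hochberg adjustment, and all 224 were among them. It called 12 genes, 0.113% of those tested, and none was a Zfp gene, the lowest adjusted p of a Zfp gene being 0.141. The number called over all genes was 0 without the filter or with voom on recovered reads, and 31, 35 and 68 without CTL replicate 2, Six2 replicate 1 and Six2 replicate 2. An unadjusted p under 0.05 was reached by 11 Zfp genes, 4.91% of them, against 17.0% of all genes tested. Leaving out Six2 replicate 1, CTL replicate 1 or CTL replicate 2 gave 4, 5 and 6 such Zfp genes, and leaving out Six2 replicate 2 gave 8. In the same order these are 1.79%, 2.23%, 2.68% and 3.57% of the Zfp genes, against 11.3%, 8.21%, 13.3% and 10.4% of all genes tested. Of the 11, 4 were higher in the Six2 libraries, 1.79% against 7.36% of all genes, and 7 were lower, 3.12% against 9.66%. Means 1.5 times apart were found for 6 Zfp genes, 2.68% against 11.0% of all genes. Of these 2 were higher, 0.893% against 3.51%, and 4 lower, 1.79% against 7.51%. Among the 8835 tested genes within the level range of the Zfp genes, 16.8% had an unadjusted p under 0.05 and 10.5% had means 1.5 times apart. Means 2 times apart were found for 1 Zfp gene, Zfp605, which is 0.446% against 4.19%. Zfp605 averaged 0.927 RPKM in the Six2 libraries and 2.09 RPKM in the CTL libraries, so it met the rule of 1.5 RPKM only through the CTL libraries, and nothing is read from this count. Zfp605 is also among the 11 genes, the 7 lower ones and the 4 with means 1.5 times lower.

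Both Six2 libraries lay above both CTL libraries for 49 Zfp genes and below both for 48, together 97 or 43.3% against 47.4% of all genes tested. The shares by direction, 21.9% and 21.4%, stand beside 21.9% and 25.5% of all genes tested, so the share of genes with libraries apart was near the background. The standard deviation of the log2 difference was 0.19 over the Zfp genes and 0.36 over all genes tested, and it was 0.37 over the 8835 genes of that level range. From the 5th to the 95th percentile the difference ran from -0.29 to 0.27 for the Zfp genes and from -0.62 to 0.44 for all genes. With a pseudocount of 0.1 RPKM in place of 1 the standard deviations were 0.24 and 0.48. The median difference was -0.01 in the Zfp genes and -0.01 in all genes tested.

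**Figure D1:**
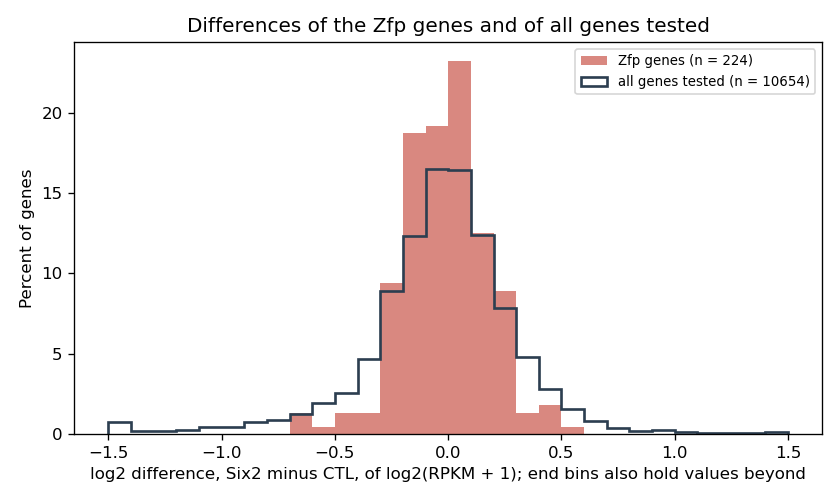
Percent of genes by log2 difference of log2(RPKM + 1), Six2 minus CTL, for the 224 Zfp genes (filled) and all 10654 genes tested (outline), with values beyond the axis put in the end bins. The Zfp genes keep between -0.68 and 0.58, and the outline has longer tails on both sides.

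The largest differences among the genes with their libraries apart by group are those of 10 genes lower and 10 genes higher in the Six2 libraries. Zfp605, a KRAB zinc finger gene with 12 fingers on chromosome 5 (chr5:110110092-110129794, plus strand, GRCm38), had 0.825 and 1.03 RPKM in the Six2 libraries, from 130 and 265 reads, against 2.13 and 2.06 RPKM in the CTL libraries, from 290 and 272 reads. Both Six2 libraries were at about the same low level, and the CTL mean was 2.26 times the Six2 mean. Zfp605 met the rule of 1.5 RPKM only through the CTL libraries, so its place among these genes supports nothing. The log2 difference was -0.68 (SE 0.131), with an adjusted p of 0.144. Zfp414, with 2 fingers found and lying at chr17:33629090-33631779 on the plus strand, had 15.3 and 15.0 RPKM in the Six2 libraries against 26.2 and 21.3 RPKM in the CTL libraries. Its log2 difference was -0.61 (SE 0.134, adjusted p 0.168), but 44.0% of its 50-base words also occur in transcripts of Gm20507, so its count is uncertain. Zfp575 on chromosome 7 (chr7:24583838-24587641, minus strand) had 3.30 and 3.27 RPKM in the Six2 libraries and 5.69 and 5.34 RPKM in the CTL libraries, groups that stand well clear of each other. Its log2 difference was -0.60 (SE 0.108), and its adjusted p of 0.141 is the lowest of all Zfp genes.

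Zfp57, a KRAB protein that keeps DNA methylation and H3K9 trimethylation at imprinted loci, had 2.16 and 2.50 RPKM in the Six2 libraries against 3.61 and 4.06 RPKM in the CTL libraries. The log2 difference was -0.54 (SE 0.128, adjusted p 0.176), and the groups did not overlap. Zfp263, a SCAN zinc finger gene, had 6.59 and 6.42 RPKM in the Six2 libraries against 10.1 and 8.60 RPKM in the CTL libraries, a log2 difference of -0.46 (adjusted p 0.198). Zfp61 and Zfp707, both with a KRAB box, followed with log2 differences of -0.33 and -0.32 and adjusted p of 0.232 and 0.243. In Zfp707 the values were 8.10 and 8.43 RPKM in the Six2 libraries against 10.2 and 11.0 RPKM in the CTL libraries. The remaining 3, Zfp51, Zfp956 and Zfp946, had log2 differences of -0.45, -0.33 and -0.30 with unadjusted p of 0.0557, 0.0800 and 0.0517. Without CTL replicate 1, Zfp51 and Zfp956 were at -0.26 and -0.22.

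On the higher side, Zfp637 at chr6:117841180-117845956 on the plus strand had 62.4 and 53.3 RPKM in the Six2 libraries and 44.1 and 39.1 RPKM in the CTL libraries, a log2 difference of 0.46 (SE 0.129, adjusted p 0.205). Zfp451, a SUMO ligase in human cells, had 8.81 and 8.79 RPKM in the Six2 libraries against 6.17 and 6.28 RPKM in the CTL libraries, with little spread within either group. Its log2 difference was 0.44 (SE 0.0983, adjusted p 0.169), at chr1:33761545-33814595 on the minus strand. Zfp639 on chromosome 3 had 20.9 and 23.6 RPKM in the Six2 libraries and 16.0 and 16.5 RPKM in the CTL libraries, a log2 difference of 0.43 (SE 0.108, adjusted p 0.188). In Zfp653 the values were 5.36 and 6.13 RPKM in the Six2 libraries and 3.72 and 4.59 RPKM in the CTL libraries, with an adjusted p of 0.289, and 15.1% of its words are shared with other genes. These 4 higher genes, together with Zfp575, Zfp605, Zfp414, Zfp57, Zfp263, Zfp61 and Zfp707, are the 11 with an unadjusted p under 0.05.

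The largest higher difference, in Zfp395, was less secure. It had 33.8 and 20.2 RPKM in the Six2 libraries and 19.9 and 14.8 RPKM in the CTL libraries, and the lower Six2 value lies just above the higher CTL value. The log2 difference was 0.58 (SE 0.293), with an adjusted p of 0.407. Zfp142, with the most fingers of all, 36, had 5.13 and 6.60 RPKM in the Six2 libraries and 3.68 and 5.06 RPKM in the CTL libraries, so that the groups also nearly touch. Zfp599, Zfp651, Zfp217 and Zfp467 had log2 differences of 0.32, 0.30, 0.29 and 0.28 and unadjusted p between 0.0685 and 0.148. Leaving out 1 library moved several of these values: Zfp395 was at 0.22 without Six2 replicate 1 and 0.94 without Six2 replicate 2, and Zfp217 at 0.13 and 0.44 in the same order. Zfp599 was at 0.51 without Six2 replicate 1 and 0.13 without Six2 replicate 2, and Zfp142 at 0.17 without CTL replicate 1 and 0.54 without CTL replicate 2. A difference of 1.5 times was also met by Zfp667, chosen here after its values were seen, with 4.44 and 2.47 RPKM in the Six2 libraries and 2.70 and 1.69 RPKM in the CTL libraries, which overlap.

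**Figure D2:**
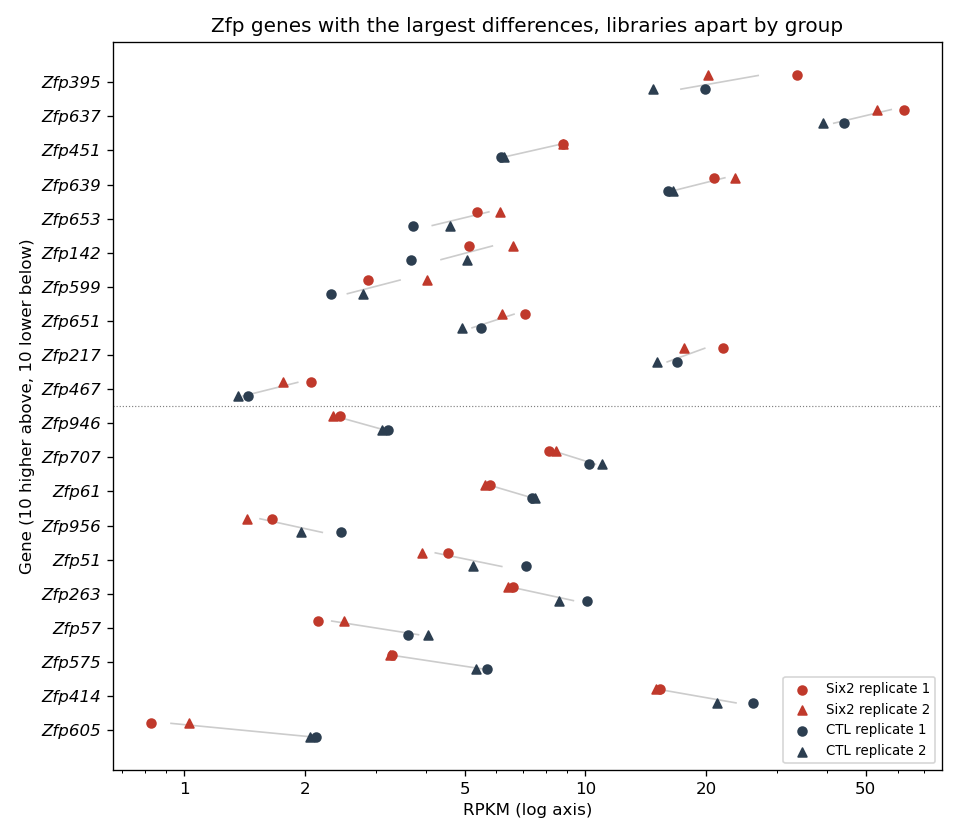
RPKM (log axis) in each library of the 10 Zfp genes with the largest higher and the 10 with the largest lower difference among those whose libraries lie apart by group, circles and triangles marking replicates 1 and 2 and a grey line joining the group means. Zfp605 lies near 1 RPKM in both Six2 libraries and near 2 RPKM in both CTL libraries, while the Zfp395 libraries of the 2 groups almost meet at 20.2 and 19.9 RPKM.

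The promoters of these genes were read from RefSeq as the 250 bases before and 50 after the gene's start, on GRCm38.p6, and 185 of the 224 genes had an entry. They are shown for the 2 lower and 2 higher genes of smallest p that had an entry, to set the sequences beside the values. Zfp575, the lower gene of smallest p, had none. Each is given 5′ to 3′ on the gene's strand, with capitals marking the motifs searched. These were TGATAC, the core of the site known for Six2 and its relatives, and GGGCGG, the GC box, both read on either strand and overlapping by at most an end base. The windows are chr5:110109842-110110141 (plus) for Zfp605, chr17:33628842-33629141 (plus) for Zfp414, chr1:33814546-33814845 (minus) for Zfp451 and chr3:32510342-32510641 (plus) for Zfp639.
Zfp605: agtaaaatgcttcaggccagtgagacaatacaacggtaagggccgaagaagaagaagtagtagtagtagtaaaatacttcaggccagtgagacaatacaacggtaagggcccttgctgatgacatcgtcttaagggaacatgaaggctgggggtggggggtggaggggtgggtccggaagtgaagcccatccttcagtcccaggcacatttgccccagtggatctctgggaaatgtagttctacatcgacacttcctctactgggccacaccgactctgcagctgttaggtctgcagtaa
Zfp414: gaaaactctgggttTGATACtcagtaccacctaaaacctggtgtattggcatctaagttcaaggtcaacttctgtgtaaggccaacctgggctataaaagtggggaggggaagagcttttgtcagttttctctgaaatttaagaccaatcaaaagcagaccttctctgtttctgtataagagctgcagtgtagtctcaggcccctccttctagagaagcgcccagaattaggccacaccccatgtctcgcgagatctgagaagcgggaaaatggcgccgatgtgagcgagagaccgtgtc
Zfp451: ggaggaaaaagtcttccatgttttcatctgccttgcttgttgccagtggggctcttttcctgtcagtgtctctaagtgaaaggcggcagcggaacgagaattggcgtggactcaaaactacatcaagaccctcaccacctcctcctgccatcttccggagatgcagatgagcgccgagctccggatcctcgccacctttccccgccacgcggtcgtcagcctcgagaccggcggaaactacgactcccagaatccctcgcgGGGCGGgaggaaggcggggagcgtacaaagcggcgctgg
Zfp639: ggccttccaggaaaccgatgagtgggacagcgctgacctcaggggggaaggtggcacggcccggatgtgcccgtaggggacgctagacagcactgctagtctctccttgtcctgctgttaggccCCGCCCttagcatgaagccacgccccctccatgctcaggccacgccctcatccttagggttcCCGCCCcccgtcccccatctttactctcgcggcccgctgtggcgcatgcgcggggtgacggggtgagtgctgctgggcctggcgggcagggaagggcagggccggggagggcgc
The Zfp605 window holds neither motif and 7 CpG pairs, that of Zfp414 holds 1 TGATAC and 8 CpG pairs, that of Zfp451 holds 1 GC box and 24 CpG pairs, and that of Zfp639 holds 2 GC boxes and 21 CpG pairs. Over the 185 Zfp promoters TGATAC occurred in 9, or 4.86%, beside 6.25% of the 27025 genes in the RefSeq table. The 9 were Zfp414, Zfp296, Zfp212, Zfp27, Zfp747, Zfp871, Zfp638, Zfp809 and Zfp277, named here for the motif. Their log2 differences ran from -0.61 to 0.17, with 7 below 0, beside 116 of all 224 Zfp genes below 0. Of the 7, Zfp414 and Zfp871 lie on chromosome 17, where 25 of 26 Zfp genes lay below 0. Zfp871 and Zfp638 were at -0.02 and -0.01. A GC box was found in 50.8% of the Zfp promoters and in 38.2% of all genes in the table, and the median number of CpG pairs was 16 in Zfp promoters and 7 in all. The Zfp genes were chosen by their level and the RefSeq genes were not, so these 2 sets are unlike. The shares among expressed genes alone were not taken. A match of letters is a description and not a binding site.

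The RNA-binding and protein-modifying Zfp genes had differences on both sides of 0. Over 14 such genes the median log2 difference was 0.02, with 2 apart higher and 3 apart lower beside the same background of 21.9% and 25.5%, and Zfp451 alone had an unadjusted p under 0.05. Zfp598, the ubiquitin ligase that marks collided ribosomes, had 23.5 and 28.2 RPKM in the Six2 libraries against 29.0 and 32.9 RPKM in the CTL libraries, a log2 difference of -0.25 with an unadjusted p of 0.132. Zfp36, tristetraprolin, which binds AU-rich elements and speeds mRNA decay, had 9.29 and 11.4 RPKM in the Six2 libraries and 7.53 and 10.4 RPKM in the CTL libraries, which overlap. Zfp330, a nucleolar protein, had 19.3 and 17.1 RPKM in the Six2 libraries against 23.3 and 19.8 RPKM in the CTL libraries, just apart. Zfp622, a factor of large ribosomal subunit maturation, differed by -0.04 on the log2 scale. With the median of each chromosome removed, Zfp598 on chromosome 17 was at -0.04. Zfp330 on chromosome 8 was then at -0.29, where the value without that step was -0.23.

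Among 14 genes known as activators or partners of chromatin complexes, 6 were apart higher and 3 apart lower, against 21.9% and 25.5% of all genes tested, the median log2 difference was 0.12 and none had an unadjusted p under 0.05. Zfp335, a subunit of histone H3K4 methyltransferase complexes, had 18.9 and 19.7 RPKM in the Six2 libraries and 15.5 and 16.6 RPKM in the CTL libraries, with an unadjusted p of 0.0592. Zfp410, an activator of the Chd4 gene, had 6.22 and 7.06 RPKM in the Six2 libraries and 4.95 and 5.76 RPKM in the CTL libraries. Zfp687, which in human cells forms a complex with Zfp592, Zfp532 and the chromatin reader Zmynd8, had 23.4 and 20.4 RPKM in the Six2 libraries and 19.3 and 17.0 RPKM in the CTL libraries. Its partner genes Zfp592 and Zfp532 had log2 differences of 0.07 and 0.16 and overlapping libraries. Zfp143, a transcription activator that also sits at chromatin loop anchors, had 11.5 and 12.5 RPKM in the Six2 libraries against 10.5 and 10.6 RPKM in the CTL libraries. With the median of each chromosome removed, the log2 difference went from 0.27 to 0.02 in Zfp410 on chromosome 12. In Zfp687 on chromosome 3 it went from 0.26 to 0.04. It was 0.29 in Zfp335 and 0.21 in Zfp143 after that step, where the values without it were 0.25 and 0.16.

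Of 4 genes tied to breast or epithelial biology, only Zfp217 had its libraries apart, where 47.4% of all genes tested had theirs apart. Zfp217, whose human counterpart is amplified in breast tumours, had 22.1 and 17.6 RPKM in the Six2 libraries and 16.9 and 15.0 RPKM in the CTL libraries, with an adjusted p of 0.418. Zfp703, whose human counterpart is amplified in luminal breast cancer, had 17.9 and 12.9 RPKM in the Six2 libraries and 14.1 and 12.2 RPKM in the CTL libraries. Its relative Zfp503 and the brown-fat regulator Zfp516 also overlapped between the groups.

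Of 7 Zfp genes with a known repressor role, Zfp57 and Zfp263 were apart lower, none was apart higher, against 25.5% and 21.9% of all genes tested, and the median log2 difference was 0.00. Zfp57 lies on chromosome 17 and Zfp263 on chromosome 16, where most other genes lay below 0. With the median of each chromosome removed, they were at -0.33 and -0.25. Zfp568, the repressor of a placental Igf2 transcript, had 2.52 and 2.81 RPKM in the Six2 libraries and 2.39 and 2.75 RPKM in the CTL libraries. Zfp809, which silences proviruses of the murine leukaemia virus kind, had 5.45 and 6.71 RPKM in the Six2 libraries and 4.59 and 6.71 RPKM in the CTL libraries. The retroelement repressor Zfp932 had 4.59 and 6.03 RPKM in the Six2 libraries and 5.53 and 6.44 RPKM in the CTL libraries, but 45.2% of its words are shared with other genes, 42.6% with Gm15446, so reads may be divided between them. Over all 224 genes, 26 shared more than 10% of their 50-base words with another gene, and their counts are uncertain in the same way.

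KRAB genes lay at lower levels than the other Zfp genes, and more of them lay below 0 in the difference than above it, an order that turned once chromosome medians were removed. A profile search of the translated coding sequences found a KRAB box in 118 genes and none in 106, and the 2 groups had a median of 11 and 7 fingers. In the KRAB genes the median level was 3.34 and 2.95 RPKM in the Six2 libraries and 3.29 and 3.24 RPKM in the CTL libraries. Without a KRAB box it was 9.58 and 9.69 RPKM in the Six2 libraries and 9.63 and 9.25 RPKM in the CTL libraries. The median log2 difference was -0.06 with a KRAB box, where 44 genes lay above 0 and 74 below, and 0.05 without one, where 64 lay above 0 and 42 below. Of the KRAB genes 19 were apart higher and 31 apart lower, against 30 and 17 of the others, and against 21.9% higher and 25.5% lower over all genes tested.

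The summed level of the KRAB genes was 472 and 467 RPKM in the Six2 libraries against 489 and 486 RPKM in the CTL libraries. That of the genes without the box was 1356 and 1324 RPKM in the Six2 libraries against 1317 and 1287 RPKM in the CTL libraries. Of the 118 KRAB genes 22 lie on chromosome 17, whose genes are described next, and outside it the medians were -0.03 over 96 KRAB genes and 0.05 over 102 others. Without CTL replicate 1 these became 0.00, with 49 KRAB genes above 0 and 47 below, and 0.02, and without Six2 replicate 2 the KRAB median was -0.00184. Over all chromosomes, with the median of each removed, the medians were 0.02 and 0.06, with 69 KRAB genes above 0 and 49 below and 70 of the others above 0 and 36 below. By number of fingers, the median log2 difference was -0.02 over 40 genes with at most 4, 0.00 over 73 with 5 to 9, 0.00 over 74 with 10 to 14 and -0.06 over 37 with more. A SCAN domain was found in 10 genes, 6 of them with a KRAB box, with a median of 0.00. These splits were not tested, since the genes are no replicates. Promoters with a GC box made up 36.5% of KRAB genes with an entry and 69.1% of the others.

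**Figure D3:**
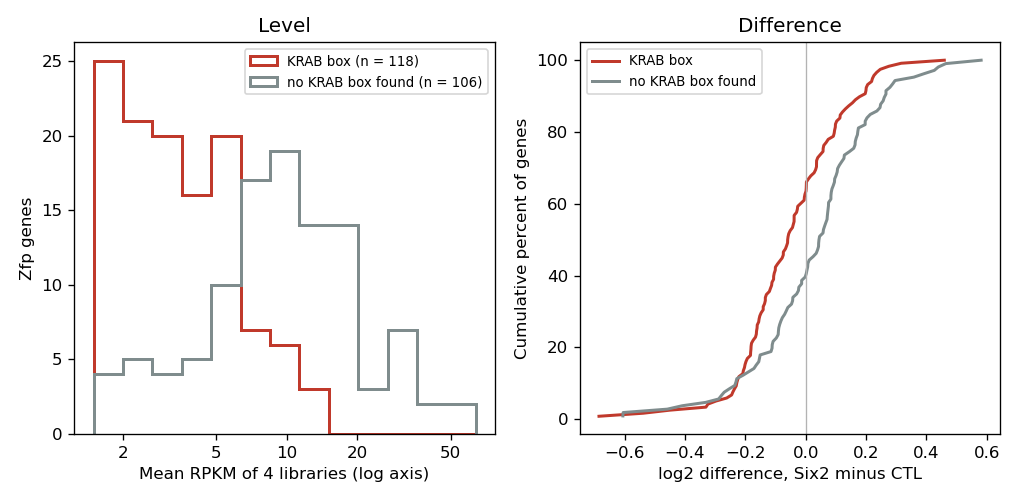
Number of Zfp genes by mean RPKM of the 4 libraries (left, log axis) and cumulative percent by log2 difference, Six2 minus CTL (right), for the 118 genes with a KRAB box and the 106 with none found. KRAB genes lie at lower levels, none above 14.5 RPKM, and their curve at right runs at or to the left of the other for most of its length.

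On several chromosomes the Zfp genes lay on the same side of 0 as the other genes of that chromosome. The genes lie on 19 chromosomes, with 61 of them, 27.2%, on chromosome 7. On chromosome 17, 25 of 26 Zfp genes lay below 0, 13 were apart lower and none apart higher, and the median log2 difference was -0.16. The other 517 genes tested on chromosome 17 had a median of -0.21, and 85.1% of them lay below 0, 54.0% were apart lower and 4.26% apart higher, so the share of Zfp genes apart lower was near that of the chromosome. The summed level of the 26 was 130.0 and 130.3 RPKM in the Six2 libraries against 160.4 and 149.5 RPKM in the CTL libraries, which do not overlap. The exception was Zfp523, chosen here after its values were seen, with 15.9 and 11.3 RPKM in the Six2 libraries and 16.2 and 9.10 RPKM in the CTL libraries. Once the chromosome's median difference was removed, the 26 genes lay 18 above 0 and 8 below, with a median of 0.05. On chromosome 16 the other 327 genes tested also had a median of -0.21, with 83.5% below 0. Of its 4 Zfp genes, 3 were apart lower and 1 apart higher, against 55.4% and 3.98% of its other genes.

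In the other direction, the 9 Zfp genes on chromosomes 1, 3 and 12, where the other genes had medians of 0.32, 0.21 and 0.25, were all apart higher, against 66.8%, 55.2% and 59.2% of the other genes on these chromosomes. On chromosome 9, 12 of 14 Zfp genes lay above 0 and 9 were apart higher, against 32.8% of the other genes, and their median was 0.13 beside 0.09 for the other genes. On the 14 chromosomes where the other genes' median lay between -0.2 and 0.2, the 185 Zfp genes had a median of 0.00. Of the 185, 39 were apart higher and 32 apart lower. The share of other genes apart higher ran from 6.59% on chromosome 19 to 32.8% on chromosome 9. Their share apart lower ran from 11.99% on chromosome 9 to 40.4% on chromosome 19. The shares over these 14 chromosomes together were not taken. Across the 14 chromosomes with at least 4 Zfp genes, the medians of the Zfp genes and of the other genes had a Pearson correlation of 0.928, and 10 had the same sign. Across all 19 chromosomes with Zfp genes the correlation was 0.866, and 14 had the same sign. Both are descriptions over chromosomes measured in the same 4 libraries. With the chromosome medians removed, 10 Zfp genes had an unadjusted p under 0.05, and 6 of them were among the 11. This is 4.46% of the Zfp genes against 11.9% of all genes tested in that fit. The log2 difference then was -0.64 in Zfp605, -0.56 in Zfp575, 0.55 in Zfp637 and 0.33 in Zfp217. It was -0.40 in Zfp414, -0.33 in Zfp57, -0.25 in Zfp263, 0.21 in Zfp639, 0.11 in Zfp451 and 0.03 in Zfp142. In Zfp281, a transcription factor of pluripotent cells on chromosome 1, it was -0.11, where the value without that step was 0.21. What sets the chromosome medians apart was not tested.

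**Figure D4:**
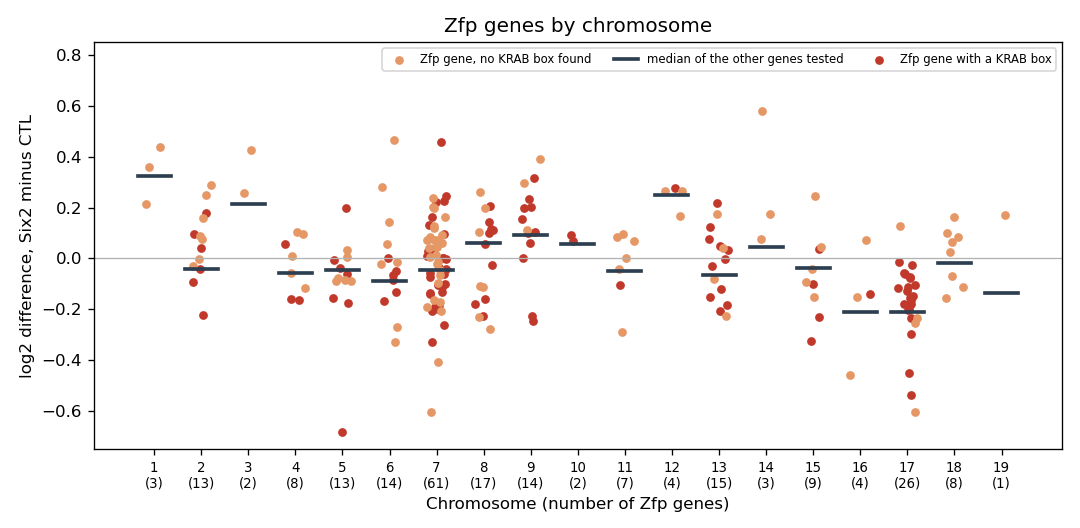
Log2 difference, Six2 minus CTL, of each Zfp gene by chromosome, with the number of Zfp genes in parentheses, colour marking the KRAB box and dark bars the median of the other genes tested on that chromosome. On chromosome 17 the points lie below 0 with 1 exception and the bar is at -0.21, while all points of chromosomes 1, 3 and 12 lie above 0.

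Neighbouring genes of a cluster lay on both sides of 0 in some clusters and on 1 side in others. Taking Zfp genes at most 100 kb apart as a run, 119 of the 224 have a Zfp neighbour, and 10 runs hold 4 or more of the genes described here. These 10 runs hold 57 genes, 24 above 0 and 33 below. The largest run, chr7:29768552-30169750, holds 12 of them, 10 with a KRAB box, with log2 differences from -0.21 to 0.25 and a median of -0.07. Both runs on chromosome 17, chr17:21383748-21588699 with Zfp54, Zfp51, Zfp53, Zfp52 and Zfp948 and chr17:32765496-33110705 with Zfp871, Zfp870, Zfp472, Zfp952 and Zfp763, had all 5 genes below 0. The run on chromosome 9 at chr9:20345136-20605409 had all 4, Zfp26, Zfp426, Zfp266 and Zfp846, above 0. In each of these 3 runs the sign is that of the median of the chromosome's other genes. A further run, chr7:12804977-12985714 with Zfp329, Zfp110, Zfp324 and Zfp446, had the opposite sign to its chromosome. All 4 lay above 0, from 0.01 to 0.10, and the other genes of chromosome 7 had a median of -0.05.

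No gene of the corepressor machinery on which KRAB proteins act passed the adjusted threshold. Of 39 genes listed, 38 were in the table and tested. Their median log2 difference was -0.03, with 7 of the 38 apart higher and 11 apart lower, against 21.9% and 25.5% of all genes tested. Trim28 had 160 and 182 RPKM in the Six2 libraries and 154 and 181 RPKM in the CTL libraries, a log2 difference of 0.03 with an adjusted p of 0.936. Setdb1 had 21.3 and 24.8 RPKM in the Six2 libraries and 17.0 and 20.4 RPKM in the CTL libraries, with an adjusted p of 0.400.

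Of the corepressor genes 3 higher and 2 lower ones reached an unadjusted p under 0.05, 5 of 38 against 17.0% of all genes tested, all with adjusted p of 0.173 or more. With 1 library left out the number of such genes was 1 without CTL replicate 1 or Six2 replicate 2, and 0 without CTL replicate 2 or Six2 replicate 1. H3f3a, which encodes the histone variant H3.3, had 351 and 312 RPKM in the Six2 libraries and 248 and 225 RPKM in the CTL libraries, a log2 difference of 0.49. Mta1, a subunit of the NuRD complex, had 60.0 and 63.4 RPKM in the Six2 libraries and 51.8 and 48.5 RPKM in the CTL libraries, and Zmynd8 had 10.2 and 10.4 RPKM in the Six2 libraries against 8.38 and 8.32 RPKM in the CTL libraries. Lower were Morc3, a chromatin ATPase that silences retroelements, with a log2 difference of -0.34, and Daxx, a chaperone of H3.3, with -0.30. With chromosome medians removed, only Zmynd8 kept an unadjusted p under 0.05, of 0.0266, and the log2 differences of Mta1 on chromosome 12 and Daxx on chromosome 17 were 0.04 and -0.09.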

How the data were processed

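RNA-seq of 4T07 cells was analysed in 2 groups of 2 libraries, taken from the titles. The authors deposited RPKM values per gene. The submitters' processing notes name TopHat2 2.1.1, Bowtie2, HTSeq 0.8.0, Picard 2.9.4, SAMtools 1.5, bcl2fastq 1.8.4 and FastQC 0.11.5, with the builds mm10 and GRCm38. Annotation, gene lengths and strand setting remain not given in the sources used here, and overlapping, antisense and near-identical genes are uncertain. Reads were recovered from the RPKM steps: 14457 of 14459 genes above 0 in 3 or more libraries came out whole within 0.001 reads. limma 3.58.1 in R 4.3.3 was fitted to log2(RPKM + 1), which understates the differences of low genes. KRAB and SCAN domains were sought with pyhmmer 0.12.3 (E-value under 1e-05) in GENCODE M21 coding sequences translated with Biopython 1.88, C2H2 fingers by residue spacing, and 50-base words in transcripts of other genes. Gene coordinates are those of GENCODE M21 and promoters those of RefSeq. Alternatives were another pseudocount, no filter, median-ratio scaling, removal of chromosome medians, voom on recovered reads, a replicate block and leaving out each library. The genes, lists and tests were chosen with earlier results of these data known. Named were the 10 largest differences each way among genes with libraries apart by group, the 8 highest levels, the role lists, the genes next to the threshold and the corepressor genes of smallest p. The script was tested on simulated data.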

Additional observations from a re-analysis of the deposited data

How the results depend on the processing

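No Zfp gene passed the adjusted threshold with the other pseudocount, without the filter, with median-ratio scaling, with chromosome medians removed, with voom or with any 1 library left out. The replicate block was the exception. The numbers pair the libraries only by number, and 2 pairs cannot show more. The difference of replicate 2 minus replicate 1 in the Six2 libraries did correlate with that in the CTL libraries across the 224 genes (r = 0.848). Across all 10654 genes tested r was 0.818, and genes are not independent. The replicate difference was larger in size than the group difference in 121 of the 224 genes and in 5370 of the 10654. With the replicate block 47 Zfp genes and 4639 of all genes were called, which is 21.0% of the Zfp genes and 43.5% of all genes. An unadjusted p under 0.05 was then reached by 74 Zfp genes, 33.0% against 52.3% of all genes, and by 17 corepressor genes. Among all genes, no filter and voom each left 0 called (limma, with 2503 and 1806 genes at an unadjusted p under 0.05), and leaving out 1 library gave 11 to 68 (31 without CTL replicate 2, 35 without Six2 replicate 1, 68 without Six2 replicate 2). Zfp genes at an unadjusted p under 0.05 numbered 4 to 8 with 1 library left out. Corepressor genes at that level numbered 1 with chromosome medians removed, 8 without the filter and 0 to 1 with 1 library left out. The median log2 difference of the Zfp genes was 0.0392 with chromosome medians removed, 0.00707 with median-ratio scaling, 0.0435 over genes at 10 RPKM or more, 0.00325 over genes at 3 RPKM or more, and -0.0208 to -0.00288 with 1 library left out. The cause of these shifts was not tested.

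Some named genes changed sign. With chromosome medians removed the log2 difference was 0.0104 for Zfp106, 0.0387 for Zfp64, 0.0747 for Zfp638, 0.00536 for Zfp830, 0.0600 for Zfp148 and -0.11 for Zfp281. Median-ratio scaling gave 0.0173 for Zfp64 and 0.00482 for Zfp638, the other pseudocount -0.00428 for Zfp30, and voom 0.000544 for Zfp64 and -0.0516 for Zfp30. With 1 library left out, 20 genes crossed 0, with these ranges: Zfp106 (-0.0609 to 0.00131), Zfp146 (-0.0425 to 0.28), Zfp207 (-0.0274 to 0.22), Zfp30 (-0.21 to 0.22), Zfp326 (-0.19 to 0.00723), Zfp362 (-0.22 to 0.41), Zfp36 (-0.0129 to 0.41), Zfp382 (-0.0204 to 0.28), Zfp384 (-0.00435 to 0.12), Zfp568 (-0.0367 to 0.11), Zfp593 (-0.14 to 0.34), Zfp638 (-0.0876 to 0.061), Zfp644 (-0.10 to 0.11), Zfp64 (-0.0728 to 0.0697), Zfp703 (-0.0225 to 0.42), Zfp706 (-0.0664 to 0.16), Zfp740 (-0.32 to 0.0167), Zfp809 (-0.13 to 0.33), Zfp830 (-0.14 to 0.0555), Zfp932 (-0.32 to 0.0115). The fit has 2 libraries a group, and a miss of the threshold does not show that a gene did not differ.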
